A study of Homo sapiens with 6 samples.

Results

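Interferon beta and the lambda interferons are secreted proteins by which a cell that has sensed nucleic acid in the wrong place warns itself and its neighbours. The genes described here are IFNL1, IFNL2 and IFNL3, which encode lambda interferons, and IFNB1, which encodes interferon beta. They are the rows with these symbols in the authors' deposited table and make up 4 of its 6018 genes. Their listed fold changes were known when they were chosen, so all values that follow are a description and carry no test of their own beyond the authors'.

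RNA sequencing was done on C4-2B, a human prostate cancer cell line of the LNCaP lineage that grows under castrate androgen levels. One group is a subline selected by passage in abiraterone from 1 to 20 µM for at least 6 months and kept in 5 µM drug, with 3 libraries labelled passage 15 to 18. The other is the parental line, passaged in parallel in 1% DMSO, with 3 libraries labelled passage 0, so passage and line cannot be told apart. Both lines grew in 10% serum, and the labels mention 10 µM abiraterone before extraction without making clear whether both lines received it. Abiraterone blocks CYP17A1, an enzyme of androgen synthesis. Nothing in the labels says whether libraries of the same line were grown as separate cultures, so the authors' p-values may measure technical spread alone.

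The authors' deposited table compares a condition C with a condition V and has no column per library, so no value per sample and no depth can be given. Its header calls C control and V vehicle, and negative log2 fold changes mean higher expression in V. A letter V stands in the titles of the 3 parental libraries, and C stands in no title as a condition. The header does not tie either letter to a cell line, so directions are given as C and V. Only genes with p under 0.05 are in it, and none has a log2 fold change closer to 0 than 1.20 in either direction, so a gene that is not listed may have any level. About 48.9% of all genes with an adjusted p had a p at or below the largest listed one, so differences between C and V were widespread.

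In most cell types these genes are almost silent until a sensor detects viral or misplaced RNA or DNA. RIG-I and MDA5 for RNA, and cGAS for DNA, signal through adaptors to the kinases TBK1 and IKK, which activate the transcription factors IRF3, IRF7 and NF-kB. These bind next to each other in front of IFNB1. Interferon beta acts on the receptor of IFNAR1 and IFNAR2, found on nearly all cells, and the lambda interferons on IFNLR1 and IL10RB, found mainly on epithelial cells. Both receptors signal through JAK kinases to factors such as STAT2 and IRF9, which induce a shared set of antiviral genes.

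In GENCODE release 29 (GRCh38), IFNB1 (ENSG00000171855) is a gene with a single exon on the minus strand of chromosome 9, at 21077105 to 21077963. The lambda genes form a cluster of 55.1 kb on chromosome 19. IFNL3 (ENSG00000197110) lies on the minus strand at 39243553 to 39245129, IFNL2 (ENSG00000183709) on the plus strand at 39268514 to 39270092, and IFNL1 (ENSG00000182393) on the plus strand at 39296325 to 39298673. All 4 are annotated as protein-coding. The authors' build is not given in the sources used here, so these positions belong to the annotation and not to the authors' counting.

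The 250 bases before each start site are shown because all 4 genes lay on the same side of the comparison and the factors above act there. They come from the RefSeq promoter table (GRCh38.p14) and run 5′ to 3′ on the strand of the gene. They are chr19:39296157-39296406 (plus strand) for IFNL1, chr19:39268146-39268395 (plus strand) for IFNL2, chr19:39245251-39245500 (minus strand) for IFNL3 and chr9:21077943-21078192 (minus strand) for IFNB1. Capitals mark exact matches, on either strand, to the IRF element AANNGAAA (N is any base), the tighter core of the interferon-stimulated response element (GAAA, any 2 bases, GAAA), the narrow NF-kB-like motif (GGG, any 3 bases, TTCC) and the TATA box TATAAA.
IFNL1: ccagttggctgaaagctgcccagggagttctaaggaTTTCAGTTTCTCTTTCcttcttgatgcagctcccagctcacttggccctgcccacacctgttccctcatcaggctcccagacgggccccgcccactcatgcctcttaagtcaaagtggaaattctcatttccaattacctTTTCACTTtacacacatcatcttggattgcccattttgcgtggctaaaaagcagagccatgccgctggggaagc
IFNL2: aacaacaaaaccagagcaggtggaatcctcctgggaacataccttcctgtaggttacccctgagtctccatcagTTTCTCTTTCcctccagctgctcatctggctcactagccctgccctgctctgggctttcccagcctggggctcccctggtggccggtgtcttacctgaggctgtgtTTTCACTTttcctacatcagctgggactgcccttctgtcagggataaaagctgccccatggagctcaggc
IFNL3: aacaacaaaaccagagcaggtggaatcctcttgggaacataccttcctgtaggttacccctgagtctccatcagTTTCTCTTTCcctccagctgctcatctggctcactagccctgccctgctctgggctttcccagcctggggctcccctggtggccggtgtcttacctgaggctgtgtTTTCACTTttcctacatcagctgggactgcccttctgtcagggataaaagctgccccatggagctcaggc
IFNB1: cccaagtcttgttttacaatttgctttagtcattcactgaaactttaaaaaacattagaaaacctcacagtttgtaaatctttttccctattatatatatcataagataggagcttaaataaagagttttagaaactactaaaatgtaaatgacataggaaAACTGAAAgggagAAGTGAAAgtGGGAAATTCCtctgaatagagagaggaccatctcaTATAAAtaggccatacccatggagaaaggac

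IFNB1 held its matches within one short stretch. IRF elements began 89 and 76 bases before its start, the narrow NF-kB-like motif 66 bases before it and the TATA box 31 bases before it. The IRF elements and the NF-kB-like motif stand in the arrangement long known from the interferon beta enhancer. None of the lambda genes had the narrow NF-kB-like motif or the TATA box in this window. IFNL1 had 3 IRF elements, which began 214, 208 and 74 bases before the start, and the first pair each overlapped a match to the tighter core. IFNL2 and IFNL3 each had 2 IRF elements, beginning 176 and 70 bases before the start, with the tighter core at the farther one.

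**Figure D1:**
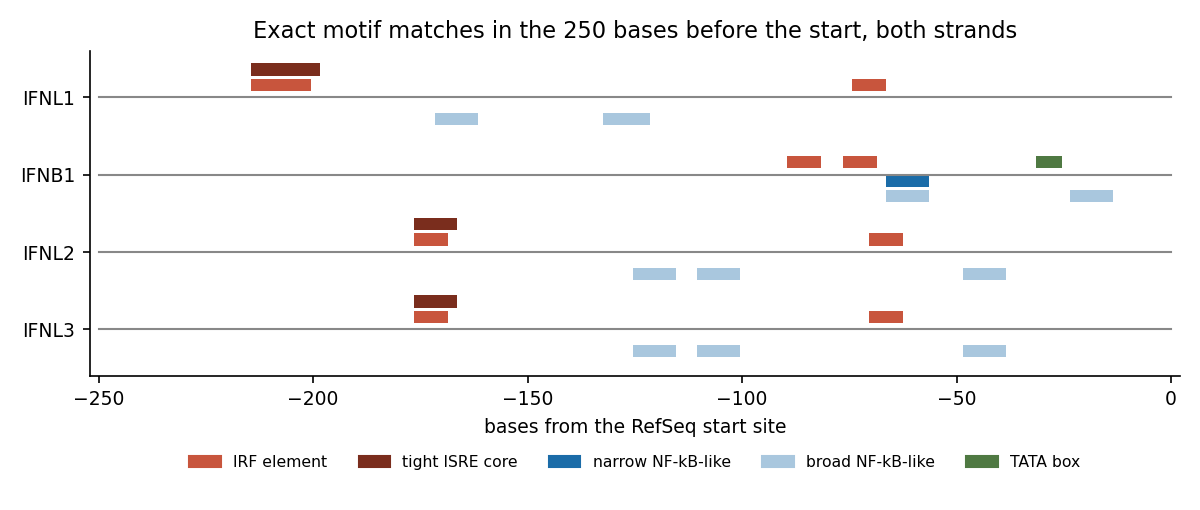
Exact motif matches in the 250 bases before the RefSeq start site, in bases from that site, for each ligand gene; boxes above the line are IRF elements, response element cores and the TATA box, and boxes below it are NF-kB-like motifs. IFNB1 has its IRF elements and its narrow NF-kB-like motif between 89 and 57 bases before the start, and IFNL2 and IFNL3 share one pattern.

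The share of all promoter windows with a match differed by motif. Of 35116 promoter windows in the table, 20.3% held the IRF element and 4.54% held it at least 2 times. The tighter core stood in 3.02%, the narrow NF-kB-like motif in 5.67% and the TATA box in 10.7%. A broader NF-kB-like motif (GGG, any 5 bases, CC), which contains the narrow one and is not in capitals, was present in all 4 genes and in 54.4% of windows. The AP-1 motif TGANTCA was in none of the 4 and in 6.57% of windows. Only this exact pattern was sought, so AP-1 sites of another form were not covered. IFNL2 and IFNL3 were the same at 249 of 250 positions and differed by C31T, counted from the first base printed, IFNL2 first. RefSeq gives IFNL3 a second start, whose window overlaps the transcribed part of the first and held none of these motifs but the broad one.

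All 4 ligand genes were far lower in C than in V. The log2 fold changes of C over V that the authors' deposited table gives ran from -10.03 for IFNL1 to -7.83 for IFNL3. All 4 had an adjusted p under 0.05, the limit used for a call here, as did 89.4% of all listed genes; 43.4% of listed genes were called with the higher level in V and 46% with the higher level in C. Since the rule used this contrast, nothing is read from the count of 4.

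IFNL1, a lambda interferon that epithelial cells and dendritic cells make on infection, had the largest values. The authors' deposited table gives it a mean of 85.3 normalised counts over all samples. In normalised counts, its level computed from the authors' deposited table was 0.163 in C against 171 in V, by finding the pair of means with the listed average and ratio and taking both sides as equally large. Its log2 fold change in the authors' deposited table was -10.03 ± 1.19 (SE; 95% interval -12.36 to -7.70; DESeq2 Wald test, adjusted p = 4.02e-16). IFNL1 had the 15th lowest log2 fold change among all listed genes.

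IFNB1, the first interferon that most cells make after sensing RNA, came next, at a mean of 46.3 normalised counts in the authors' deposited table. Its level computed from the authors' deposited table was 0.163 in C against 92.5 in V, in normalised counts. The log2 fold change in the authors' deposited table was -9.15 ± 1.20 (SE; 95% interval -11.49 to -6.80; DESeq2 Wald test, adjusted p = 1.88e-13).

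IFNL2 and IFNL3, near-identical lambda interferons, had lower means, at 24.6 and 18.6 normalised counts in the authors' deposited table. The IFNL2 level computed from the authors' deposited table was 0.163 in C against 49.0 in V, in normalised counts. Its log2 fold change in the authors' deposited table was -8.23 ± 1.21 (SE; 95% interval -10.61 to -5.86; DESeq2 Wald test, adjusted p = 7.85e-11). The IFNL3 level computed from the authors' deposited table was 0.163 in C against 37.0 in V, in normalised counts. Its log2 fold change in the authors' deposited table was -7.83 ± 1.22 (SE; 95% interval -10.22 to -5.44; DESeq2 Wald test, adjusted p = 9.95e-10). The 95% intervals of all 4 fold changes overlap one another, and the upper end nearest to 0 is -5.44, that of IFNL3.

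**Figure D2:**
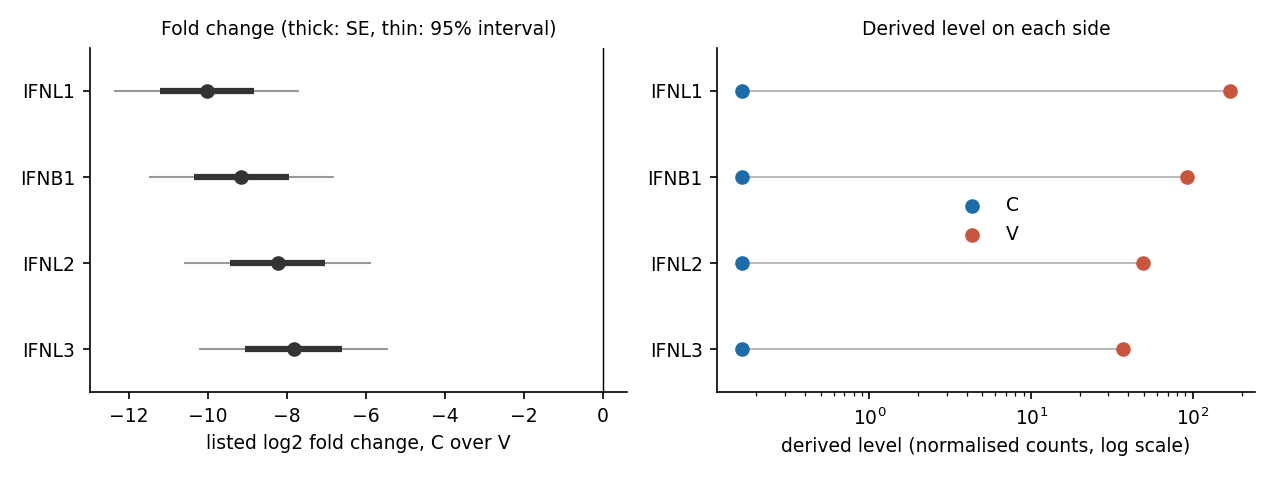
Left, log2 fold change of C over V for the 4 ligand genes as listed by the authors, with the standard error (thick) and the 95% interval (thin). Right, the level derived on each side in normalised counts on a log scale; the C points coincide at 0.163 while the V points spread from 37.0 to 171.

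The C level was the same for all 4 genes, although their means differed. The C levels derived from the authors' deposited table lay between 0.1625 and 0.1631 normalised counts. The V level of IFNL1 was 4.61 times that of IFNL3, which is 2.21 on the log2 scale. The fold changes of the same pair in the authors' deposited table differed by -2.20 on the log2 scale. The order of the fold changes therefore repeats the order of the V levels and holds no separate information on C.

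This value lay at the low end of the C levels in the table, and many genes lay near it. Of the 744 listed genes with a derived C level under 1 normalised count, 289 lay from 0.14 to under 0.18, and only 75 in the wider range from 0.18 to under 0.30. A further 92 lay from 0.30 to under 0.34, and 75 from 0.58 to under 0.64. The lowest range held 4.8% of all listed genes. Its 55 genes with a mean of at least 10 in the authors' deposited table had a median C level of 0.163 and standard errors of 1.18 to 1.31. DESeq2 gives a finite level to a group without any reads, set by library size and not by the gene. Reads per library are not in the table used here, so it cannot be shown that the C libraries had none. At such C levels the size of the 4 fold changes is poorly determined, and only the V levels separate the genes.

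**Figure D3:**
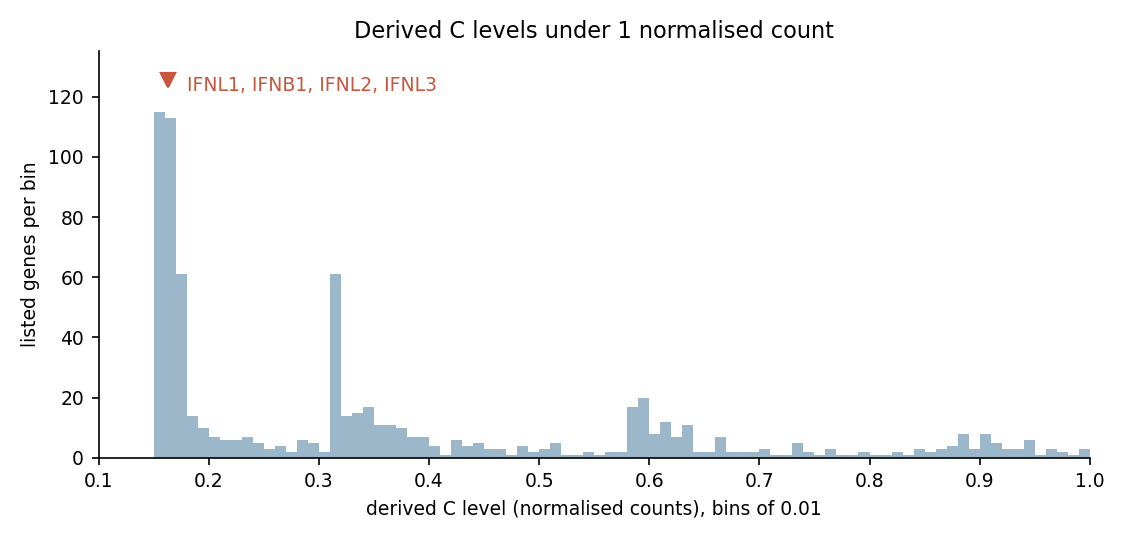
Number of listed genes per 0.01 of derived C level, in normalised counts, for the 744 genes under 1. The levels pile up at the low end, near 0.16, where the 4 ligand genes lie (triangle), and again from 0.30 to 0.34 and from 0.58 to 0.64.

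Set per length of the longest annotated transcript, IFNL1 had the highest V level and IFNB1 the next. The V levels derived from the authors' deposited table were 199 normalised counts per kilobase for IFNL1 and 108 for IFNB1. They were 66.4 per kilobase for IFNL2 and 50.3 for IFNL3. No spread over libraries is known, so whether neighbours in this order differ beyond it was not tested.

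The division between IFNL2 and IFNL3 is uncertain, because reads of 50 bases often match both. Their annotated coding sequences, of 600 bases each, were the same at 589 positions, and the longest run without a difference was 125 bases. Of the 50-base windows of the IFNL2 transcript, 32.0% also occurred in another gene, and of the IFNL3 windows 33.0%. The other gene was IFNL3 or IFNL2 in 220 windows each way, and the pseudogene IFNL3P1 in 8 windows of IFNL2 and 14 of IFNL3. No 50-base window of IFNL1 or IFNB1 was shared with another annotated gene. If only windows found in a single gene had been counted, the V levels derived from the authors' deposited table would come to 211 normalised counts per 1000 such windows for IFNL1 and 114 for IFNB1. On the same scale they would come to 105 for IFNL2 and 80.5 for IFNL3. How the authors treated reads with several matches is not given in the sources used here.

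The first 50 coding bases of both genes show how little there is to tell them apart; no other ungapped 50-base coding window held more than these 2 differences, in capitals. They are T18C and C29T, counted from the first base printed, IFNL2 first. The stretch is interrupted by an intron and spans chr19:39268569-39268716 (plus strand) in IFNL2 and chr19:39244930-39245077 (minus strand) in IFNL3, in GRCh38.
IFNL2: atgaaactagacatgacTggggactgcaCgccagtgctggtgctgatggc
IFNL3: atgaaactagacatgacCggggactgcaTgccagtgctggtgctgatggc

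Of the other interferon genes, IFNL4 alone was listed. IFNL4 lies beside IFNL3 at 39246314 to 39248856 on the minus strand of chromosome 19 and encodes a lambda interferon only in people who carry an intact allele. The authors' deposited table gives IFNL4 a mean of 1.50 normalised counts, from which levels of 0.155 in C and 2.85 in V were derived. Its log2 fold change in the authors' deposited table was -4.20 ± 1.76 (SE; DESeq2 Wald test, adjusted p = 0.0394). None of the 16 other type I genes, which are 13 IFNA genes and IFNE, IFNK and IFNW1, was listed, nor was IFNG, the type II interferon.

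Receptor and signalling genes were listed only in part. The list counts from here on include genes that are not listed. The share of all annotated genes that is called was not computed, so these counts have no such share beside them. Of the 6 receptor chains, 1 was called: IFNGR1, a chain of the interferon gamma receptor. IFNGR1 had a log2 fold change of -1.50 ± 0.15 in the authors' deposited table, with derived levels of 104 normalised counts in C and 295 in V. IL10RB, the chain that the lambda receptor shares with the interleukin-10 receptor, was listed at -1.64 ± 0.79 in the authors' deposited table and was not called (adjusted p = 0.0804, DESeq2 Wald test). IFNLR1, IFNAR1 and IFNAR2 were not listed. Of the 7 kinases and signal transducers, 1 was called, JAK2, a kinase of several cytokine receptors, at -3.29 ± 0.12 in the authors' deposited table. STAT2, IRF9, JAK1 and TYK2 were not listed.

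Of the 13 genes in the list of nucleic acid sensors, 7 were called, and all 7 were lower in C. RIG-I (listed as DDX58), MDA5 (IFIH1) and LGP2 (DHX58) recognise viral RNA in the cytoplasm. Their smallest change in the authors' deposited table was that of DHX58, at -4.60 ± 0.15, with derived levels of 41.9 normalised counts in C and 1015 in V. TLR3, which recognises double-stranded RNA in endosomes, had a log2 fold change of -4.98 ± 0.70 in the authors' deposited table, with derived levels of 1.56 normalised counts in C and 49.5 in V. The DNA sensor IFI16 had -6.37 ± 1.23 in the authors' deposited table, but its derived C level was 0.338 normalised counts. NLRC5, counted in this list although it drives antigen-presentation genes, had -5.32 ± 0.22 and TLR8 -4.66 ± 1.65 in the authors' deposited table. ZBP1, a sensor of left-handed nucleic acid, was listed and not called (adjusted p = 0.0715, DESeq2 Wald test, in the authors' deposited table). Several of these genes are themselves induced by interferon.

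None of the 14 adaptors and kinases between sensors and the ligand genes was listed, among them MAVS, STING1, TBK1 and IKBKE. Of the 17 factors that bind the interferon promoters, 7 were called, all lower in C, with a median log2 fold change of -1.67. IRF1, a factor induced by interferon that can drive both beta and lambda genes, had -5.09 ± 0.19 in the authors' deposited table, with derived levels of 21.5 normalised counts in C and 733 in V. IRF7, which amplifies interferon production, had -1.67 ± 0.16 in the authors' deposited table, with derived levels of 70.3 normalised counts in C and 223 in V. JUN, an AP-1 subunit, had -1.64 ± 0.10 and the NF-kB subunit NFKB2 -1.67 ± 0.12 in the authors' deposited table. RELB, another NF-kB subunit, had -2.88 ± 0.33 and IRF2, which competes with IRF1, -1.43 ± 0.17 in the authors' deposited table. PRDM1, a repressor first found on the IFNB1 promoter, was called at -2.27 ± 0.97 (adjusted p = 0.0444, DESeq2 Wald test, in the authors' deposited table). IRF3, RELA and NFKB1 were not listed.

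Some genes that restrain interferon signalling or production were also called. Of the 7 feedback inhibitors, 3 were called, all lower in C. USP18, which blocks the receptor of type I interferon, had -1.75 ± 0.15 in the authors' deposited table, with derived levels of 87.8 normalised counts in C and 295 in V. SOCS1 and SOCS3, which inhibit JAK kinases, had -5.09 ± 0.91 and -5.34 ± 1.33 in the authors' deposited table, with derived C levels of 0.911 and 0.299 normalised counts. Of the 10 genes that clear or edit RNA and DNA and so limit interferon induction, 2 were called, both lower in C. Among them was SAMHD1, which depletes the building blocks of DNA, at -1.78 ± 0.09 in the authors' deposited table. ADAR and TREX1 were not listed.

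Downstream, 31 of 34 interferon-stimulated genes were called, all lower in C, with a median log2 fold change of -5.78. Of all listed genes, 43.4% were called lower in C, but the 34 also include genes that are not listed. By p in the authors' deposited table the first 3 were ISG15, HERC5 and PARP14. The last of these, an ADP-ribosyltransferase, had -4.39 ± 0.08 in the authors' deposited table, with derived levels of 201 normalised counts in C and 4226 in V. In contrast to the ligand genes, 7 of the 31 had a derived C level under 1 normalised count, and 1 lay in the lowest range. The differences nearest to 0 in the list were those of the antiviral genes MX1 and IFITM3, at -1.41 ± 0.37 and -1.27 ± 0.13 in the authors' deposited table.

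Of 30 other secreted cytokines and chemokines, 13 were called, all lower in C, with a median log2 fold change of -4.21. Ordered by p in the authors' deposited table, LIF, TNFSF10 and CCL5 came first. TNFSF10, the death ligand TRAIL, had -3.57 ± 0.27 in the authors' deposited table, with derived levels of 13.4 normalised counts in C and 159 in V. CCL5 and CXCL11, which attract T cells, shared the lowest range of C with the ligand genes, and their derived V levels were 1668 and 422 normalised counts. The inflammatory cytokine TNF had derived levels of 3.83 normalised counts in C and 64.8 in V, and the neutrophil attractant CXCL8 had 2.13 in C and 39.6 in V. IL6, IL1A and IL1B were not listed.

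Over the 12 pathway lists together, 68 of 156 genes were listed and 66 called. All 66 were lower in C, with a median log2 fold change of -4.71, against -2.40 over all called genes that were lower in C. The lists were drawn up with results of these data known, so the shared direction is a description. What share of all annotated genes is listed was not computed. The counts for these lists, and for the cell type markers below, therefore have no such share beside them and are a description too.

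**Figure D4:**
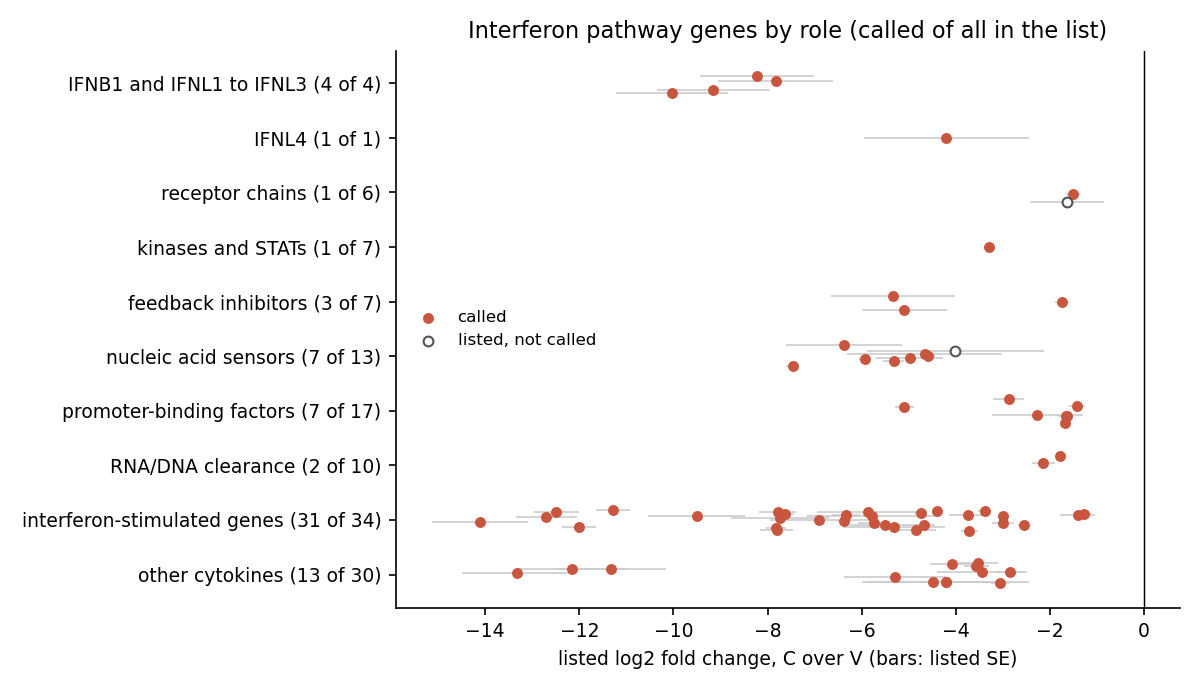
Listed log2 fold change of C over V for the interferon ligand genes and the pathway genes by role, with the listed standard error; filled points were called, open points listed only, and the counts give called genes of all genes in each list. All points lie below 0, and the 4 ligand genes lie between -10.03 and -7.83.

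The regions around the ligand genes were also examined. Of all listed genes, 43.4% were called with the higher level in V. The share of all annotated genes that is listed was not computed, so the counts below are not read as a trait of these regions. Within 500 kb of IFNB1, none of 40 other annotated genes was listed, although 26 of them are interferon genes or their pseudogenes. The nearest called protein-coding genes were CDKN2A and CDKN2B, cell-cycle inhibitors 889.8 and 924.9 kb away, at -2.62 ± 0.18 and -6.57 ± 0.40 in the authors' deposited table. Within 500 kb of the lambda cluster, 7 of 69 other genes were listed and 5 called, all 5 lower in C. Besides IFNL4 they included ZFP36, an RNA-binding protein that destabilises cytokine messages, which lies 108 kb away. ZFP36 had -3.06 ± 0.19 in the authors' deposited table, with derived levels of 36.2 normalised counts in C and 303 in V. GMFG, LGALS4 and CAPN12, the other called neighbours, had derived V levels of 4.74, 26.1 and 13.2 normalised counts. FBXO17, 268 kb away, was listed with the higher level in C and was not called (adjusted p = 0.0788, DESeq2 Wald test, in the authors' deposited table).

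**Figure D5:**
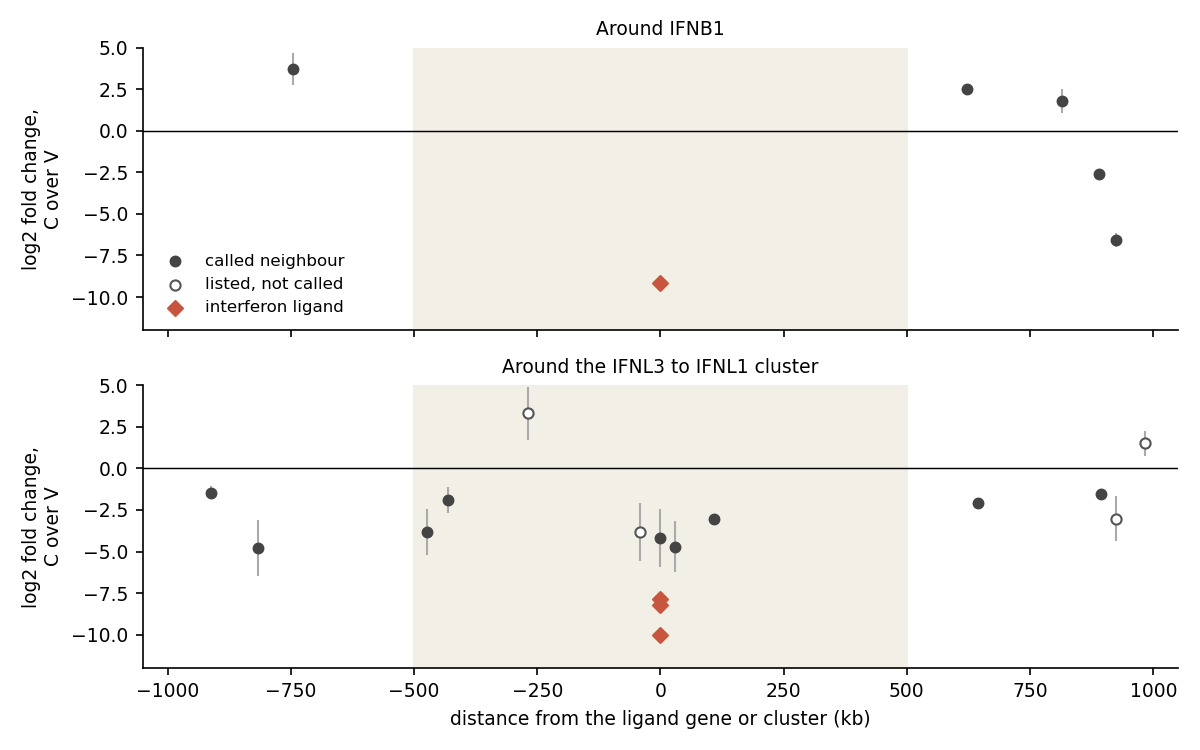
Listed log2 fold change of C over V, with its standard error, for listed genes within 1000 kb of IFNB1 and of the lambda cluster, by distance from the gene or cluster in kb; the shaded band is 500 kb to each side, diamonds are the ligand genes and open points were not called. No neighbour is listed within the band around IFNB1, and no called neighbour in the band around the lambda cluster is as low as the ligand genes.

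None of the 8 markers of plasmacytoid dendritic cells, the main interferon producers of blood, was listed. Of the 16 leukocyte markers, 7 were listed and 6 called, all lower in C; the defining T-cell and B-cell markers CD3E, CD3D and MS4A1 were not listed. The derived levels of the 7 listed markers summed to 2.79 normalised counts in C and 101 in V, of which PTPRC, a marker of all leukocytes, gave 0.164 in C and 35.7 in V. Of the 10 fibroblast and endothelial markers, 4 were called, 3 of them lower in C, with summed derived levels of 91.2 normalised counts in C and 344 in V. Of the 14 prostate luminal markers, 4 were called, 3 of them higher in C and 1 lower. KLK3, which encodes prostate-specific antigen, had derived levels of 15170 normalised counts in C and 3363 in V from the authors' deposited table. The keratin gene KRT8, the marker that was lower in C, had derived levels of 1364 normalised counts in C and 3715 in V from the authors' deposited table. The part of other cells in the ligand values was not tested, and in these bulk samples fewer producing cells and less RNA per cell cannot be told apart.

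With a single comparison, likeness of pattern can be measured only as closeness in log2 fold change and log2 mean. By this distance, RTP4 and GBP5 were among the 3 listed genes nearest to IFNB1. Nearest to IFNL1 were the pseudogenes RPS27P29 and WFDC21P, and CCN3. Nearest to IFNL2 were S100A8, CCL22 and SPNS2, and nearest to IFNL3 were DAPP1, NMI and PTPRC. Distances ran from 0.0338 for DAPP1 to 0.548 for GBP5 in log2 units. All the genes named here but SPNS2, at 0.206 normalised counts, had a derived C level in the lowest range.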

How the data were processed

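RNA was sequenced as 50 bp single ends from libraries of 1 µg total RNA, per the labels' protocols, which mention 2 library kits, for mRNA and for stranded total RNA, without saying which served these samples. The submitters' processing notes name FastQC and Cufflinks 2.2.1 with no role; the aligner, read counter and build were not given in the sources used here. A single table was used, the authors' DESeq2 comparison of C and V. The mean of normalised counts is a signal value computed by the authors, the log2 fold change is their maximum likelihood estimate, the standard error and Wald statistic are their score columns, and the p-value and Benjamini-Hochberg adjusted p-value come from their Wald test, all per the file headers. Depth per library is unknown. The table holds 6018 genes with p under 0.05; 5985 of 5985 p-values recomputed from fold change and standard error lay within 1% of the listed ones. An adjusted p of 0 beside a p above 0, found for 4 genes, was read as not given.

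Levels on each side were computed as those 2 means with the listed average and ratio, for equally many libraries on each side, with no error of their own. The ranges of C levels were chosen after their distribution was seen. The derivation was checked only on simulated means built under its own assumption, so recovery was fixed in advance and the assumption was not tested. The motif search was checked only with the IRF element AACTGAAA planted on the plus strand. Matches on the minus strand and the other motifs were not checked in this way. Coding identity came from global alignment of GENCODE release 29 transcripts, and shared windows were sought in those transcripts on both strands, so unannotated genomic copies were not covered. Python 3.11.15, pandas 2.3.3 and scipy 1.17.1 were used. The members and gene lists were chosen with earlier results of these data known. Named genes are the members, called list genes with at least the 3 of smallest p per list, and for likeness the 3 nearest genes per member. Genes were matched by symbol. Some genes that this rule would name are not reported here. The design allowed for values per library; the table holds none, so no model was fitted. A planned protein comparison was not done. Alternatives were stricter call rules, unequal library numbers, other neighbour distances and other window lengths.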

Additional observations from a re-analysis of the deposited data

How the results depend on the processing

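All 4 ligand genes remained called, with the higher level in V, at an adjusted p under 0.01, a log2 fold change of at least 2, a 95% interval beyond a log2 of 1 or a mean of at least 10. The 4 genes were chosen with these values known, so this describes the values and is no test of their stability. A mean of at least 100 left 0 of the 4, because it removes them by level, and it left 38 of the 66 called pathway genes; under the other 4 rules that count stayed within 1.5 times. No pathway gene was called with the higher level in C under any of the 5 rules. This was fixed in advance, because each rule keeps only a part of the calls and none of these was higher in C. Of 70 counts for single lists under these rules, 20 moved by more than 1.5 times, all downward, the only direction that stricter rules allow.

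The V levels scale with the assumed number of libraries. With 2 libraries behind C and 3 behind V, the derived V level was 142 normalised counts for IFNL1, 77.1 for IFNB1, 40.9 for IFNL2 and 30.8 for IFNL3; with 3 behind C and 2 behind V it was 213, 116, 61.1 and 46.1. The C levels stayed within the range that the 95% intervals of the fold changes allow. Within 1000 kb, 5 called genes lay around IFNB1, 2 lower in C and 3 higher in C. Around the lambda cluster 9 called genes lay within 1000 kb, all lower in C, and 3 within 250 kb. With windows of 36 bases, 47.9% of IFNL2, 48.9% of IFNL3 and 1.22% of IFNL1 were shared; with 75 bases, 12.5% of IFNL2 and 12.6% of IFNL3.

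No paired analysis was possible because the table has no column per library; for the same reason leaving out single libraries was not run. Without values per library, depth limits the C side most, where all 4 ligand genes sit in the lowest range.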
